A study of Arabidopsis thaliana with 10 samples.

Results

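XTH18 (AT4G30280) and XTH19 (AT4G30290) are neighbouring genes on chromosome 4 of Arabidopsis thaliana that encode xyloglucan endotransglucosylase/hydrolases. They were chosen by their higher signal in the line ex2/flu than in flu, so all values that use the arrays of those genotypes are given here as a description, without a test. Each gene has 1 probe set of its own on the ATH1 array, which makes 2 of the 22746 probe sets of genes in the deposited table. A further 7 probe sets carry a gene symbol that starts with XTH and serve as the background of the family.

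Xyloglucan is a polysaccharide that coats and links cellulose microfibrils in the primary cell wall. Enzymes of this family cut a xyloglucan chain and join the cut end to another chain, or to water, and so let a wall be loosened, rebuilt or strengthened as cells grow or are bent. Several members, TCH4 (XTH22) the best known, are switched on within minutes by touch. XTH18 is known mainly from roots, and XTH19 also from cut stems that are healing. The flu mutant cannot hold back chlorophyll synthesis in the dark, accumulates the photosensitizer protochlorophyllide, and releases singlet oxygen in its plastids on return to light. EXECUTER1 and EXECUTER2 are related plastid proteins needed for much of the nuclear response to that signal.

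Rosette leaves of 5 genotypes in the Columbia background were profiled, with 2 arrays per genotype. The genotypes were wild type, flu, ex1/flu (flu with a T-DNA insertion in EX1), ex2/flu (flu with an insertion in EX2) and ex1/ex2/flu (both insertions). All flu lines share a flu allele that came from Landsberg erecta and had been backcrossed to Columbia 5 times, each insertion is represented by 1 line, and the triple mutant was picked from an F2 population. Soil-grown mature plants in continuous light (100 µmol m-2 s-1) stayed in darkness for 8 h and were harvested 30 min after the light returned, and each array held material of 5 plants. No array was made before the light returned, so a difference already present in the dark is part of every value. Signals are linear and were scaled by the authors to a common level per array. The 40th percentile of an array lay between 85.5 and 92.6 signal units, and a probe set that reached it on at least 2 arrays was tested (14435 of 22746). Leaf RNA is a mixture, so fewer cells of a type and less RNA per cell cannot be told apart.

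The tissue label was checked first. Of 12 leaf markers, 3 had a probe set of their own. RCA and SBPASE, a pair of abundant genes of carbon fixation, had signals of 15260 to 21041 and 9714 to 12791 over the 10 arrays. The other measured marker, the antenna gene LHCB4.2, had 15029 and 17011 in wild type and 16240 and 16239 in ex2/flu, but 6848 to 8552 in the other 3 genotypes. It fell by 1.02 ± 0.12 log2 units in flu against wild type (limma adjusted p 4.51e-05, n = 2 per genotype) and rose by 1.04 ± 0.12 in ex2/flu against flu (0.00056). It was thus higher in ex2/flu, where XTH18 and XTH19 were also highest, but as high in wild type, where they were low, and its part in their values was not tested. EXPA7, an expansin of root hairs and the only measured member of 10 root markers, stayed below the 40th percentile on all 10 arrays (9.47 to 39.1). No inflorescence marker (0 of 6) had a probe set of its own in the annotation used, so that check was void. The EX1 signal was 606 and 772 in wild type, 772 and 771 in flu, and 631 and 561 in ex2/flu, but 248 and 236 in ex1/flu and 185 and 225 in ex1/ex2/flu. It was thus lower in both lines labelled as lacking EX1. FLU and EX2 were not analysed here.

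XTH18 had its highest signal in ex2/flu and its lowest in wild type and ex1/flu. Its signal was 1015 and 1348 in ex2/flu, 291 and 591 in flu, and 385 and 334 in ex1/ex2/flu. In wild type it was 252 and 162, and in ex1/flu it was 206 and 199. Both ex2/flu arrays lay above all 8 others, while the flu arrays enclosed those of ex1/ex2/flu and the wild type arrays enclosed those of ex1/flu. The mean log2 signals were 10.19 ± 0.29 (SD, n = 2) in ex2/flu, 8.70 ± 0.72 in flu, 8.49 ± 0.14 in ex1/ex2/flu, 7.66 ± 0.03 in ex1/flu and 7.66 ± 0.45 in wild type. Neighbours in this order that overlapped were flu with ex1/ex2/flu and ex1/flu with wild type. The flu replicates differed from each other more than those of any other genotype, so each value set against flu depends on which flu array is used.

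XTH19 was also highest in ex2/flu, but its second place was taken by ex1/flu. Its signal was 658 and 712 in ex2/flu, 426 and 376 in ex1/flu, and 296 and 276 in flu. In wild type it was 229 and 192, and in ex1/ex2/flu it was 210 and 184. The arrays of ex2/flu, ex1/flu and flu formed steps that did not overlap, and only wild type and ex1/ex2/flu overlapped. The mean log2 signals were 9.42 ± 0.08 (SD, n = 2) in ex2/flu, 8.65 ± 0.13 in ex1/flu, 8.16 ± 0.07 in flu, 7.71 ± 0.18 in wild type and 7.62 ± 0.13 in ex1/ex2/flu. Over the 5 genotypes the pooled SD between replicates was 0.125 for XTH19 and 0.407 for XTH18 on the log2 scale, so XTH19 was the more evenly measured gene.

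**Figure D1:**
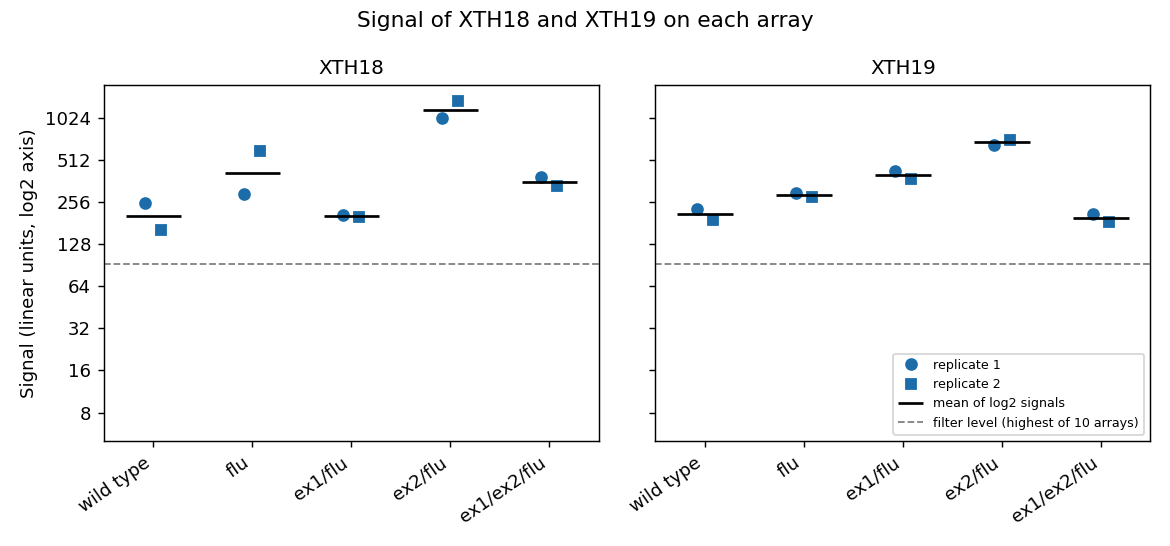
Signal of XTH18 (left) and XTH19 (right) on each of the 10 arrays, on a log2 axis, with circles for replicate 1, squares for replicate 2 and a bar at the mean of the log2 signals; the dashed line is the highest 40th percentile of the 10 arrays (92.6). XTH18 reaches 1015 and 1348 in ex2/flu against 199 and 206 in ex1/flu, and XTH19 goes from 184 and 210 in ex1/ex2/flu to 658 and 712 in ex2/flu.

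The comparison that chose the genes was ex2/flu with flu, which asks what the loss of EX2 changes. XTH18 was higher in ex2/flu by 1.50 ± 0.28 log2 units (limma's moderated SE, n = 2 per genotype), a 2.82-fold difference, and XTH19 by 1.26 ± 0.17, a 2.40-fold difference. By size of the difference they stood 13th and 19th from the top among the 14435 probe sets tested. Set against flu replicate 2 alone the XTH18 difference was 0.99, and against flu replicate 1 alone it was 2.01. Since these values chose the genes, nothing is read from them beyond their size.

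The step from wild type to flu was smaller for both. XTH18 was 1.04 ± 0.28 log2 units higher in flu (2.05-fold) and XTH19 0.45 ± 0.17 (1.36-fold), and on each gene both flu arrays lay above both wild type arrays. For XTH18 that difference was 0.53 with flu replicate 1 alone and 1.55 with flu replicate 2 alone. From wild type to ex2/flu the differences were 2.53 ± 0.28 for XTH18 (5.79-fold) and 1.71 ± 0.17 for XTH19 (3.27-fold). These comparisons share arrays with the one that chose the genes and are therefore not tested.

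A set of 3 comparisons took their differences from neither the flu nor the ex2/flu arrays and were tested. Their SE came from the spread on all 10 arrays, flu and ex2/flu included, so the adjusted p of a fit to the compared arrays alone is given as well. In ex1/flu against wild type, XTH19 rose by 0.93 ± 0.17 log2 units (1.91-fold, n = 2 per genotype, limma adjusted p 0.00955), with both ex1/flu arrays above both wild type arrays. Fitted on those 4 arrays alone, the same difference had an SE of 0.22 and a limma adjusted p of 0.0247. Of all probe sets tested, 1.58% were called in this comparison at an adjusted p under 0.05. The call was lost without wild type replicate 2 (0.81, limma adjusted p 0.136) and without ex1/flu replicate 1 (0.84, 0.0541). XTH18 did not differ detectably there, at 0.00 ± 0.28 (limma adjusted p 0.998). The difference between the responses of the neighbouring genes was not tested.

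In ex1/ex2/flu against wild type, where 1.25% of all probe sets were called, neither gene was. XTH18 stood at 0.83 ± 0.28 log2 units (1.78-fold, limma adjusted p 0.233, n = 2 per genotype), with both triple mutant arrays above both wild type arrays, and XTH19 at -0.09 ± 0.17 (0.940). The XTH18 value was 0.51 without wild type replicate 2 and 1.15 without wild type replicate 1, and on the compared arrays alone its limma adjusted p was 0.0808. In ex1/ex2/flu against ex1/flu only 0.0346% of all probe sets were called, and again neither gene was. There XTH19 stood at -1.02 ± 0.17 (0.49-fold, limma adjusted p 0.0564) and XTH18 at 0.83 ± 0.28 (1.77-fold, adjusted p 0.705), and on the compared arrays alone the adjusted p was 0.227 for XTH19 and 0.366 for XTH18. On both genes the arrays of these genotypes did not overlap, with XTH19 lower and XTH18 higher in the triple mutant. With 2 arrays per genotype the smallest two-sided p of an exact permutation test is 0.333, so separation of the arrays alone carries no call.

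Arranged by the lost gene, the values of the neighbours differ in sign in several places. When EX1 was lost in the presence of EX2 (ex1/flu against flu), XTH18 was lower by 1.03 and XTH19 higher by 0.49 log2 units. When EX1 was lost in the absence of EX2 (ex1/ex2/flu against ex2/flu), both were lower, by 1.70 ± 0.28 for XTH18 and 1.80 ± 0.17 for XTH19. The loss of EX2 in the presence of EX1 gave the 1.50 and 1.26 above, and in the absence of EX1 it gave 0.83 for XTH18 and -1.02 for XTH19. The values for loss of EX2 thus had 1 sign for XTH18 and opposite signs for XTH19. In ex1/ex2/flu against flu XTH18 stood at -0.21 ± 0.28 and XTH19 at -0.54 ± 0.17. With flu replicate 1 alone the XTH18 differences from flu were -0.52 in ex1/flu and 0.30 in ex1/ex2/flu, and with flu replicate 2 alone they were -1.55 and -0.72, so the sign in ex1/ex2/flu depended on the flu array. All but 1 of these comparisons use the flu or ex2/flu arrays, so they are a description. They also share arrays with each other.

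**Figure D2:**
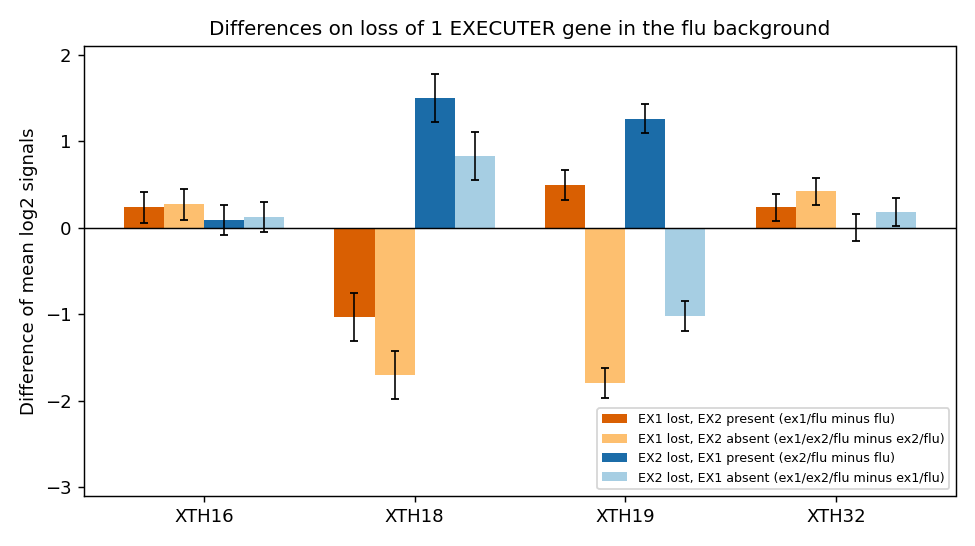
Differences of mean log2 signals when EX1 (orange) or EX2 (blue) was lost, with the other EXECUTER gene present (dark) or absent (light). Shown are XTH18, XTH19 and the tested genes with a listed XTH symbol above the 40th percentile in every genotype. XTH33, dim in flu, and XTH27, listed under an older name, are not shown. Whiskers are limma's moderated SE and n is 2 per genotype. XTH19 turns from 1.26 to -1.02 on loss of EX2, XTH18 goes from 1.50 to 0.83, and XTH16 and XTH32 stay between 0.00 and 0.42.

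The other XTH genes served as the background of the family. Of the 7 other XTH probe sets, 3 were tested, and 0 of the 3 were called by limma in flu against wild type, ex1/flu against flu, ex2/flu against flu or ex1/ex2/flu against flu. Over all probe sets the shares called in these comparisons were 3.84%, 1.36%, 1.04% and 3.0%, so 0 of 3 is what the background would mostly give. At an unadjusted p under 0.05 the counts were 0, 1, 1 and 1 of 3.

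XTH32 had 976 to 1446 over the 10 arrays, with both ex1/ex2/flu arrays above the other 8. Its signal was 976 and 1120 in ex2/flu and 1024 and 1072 in flu, where the differences of ex2/flu and ex1/ex2/flu from flu were 0.00 ± 0.16 and 0.42 ± 0.16 log2 units (limma adjusted p 0.998 and 0.193, n = 2 per genotype). XTH16, a member of the same enzyme family, ranged from 440 to 686 and stood at 0.09 ± 0.18 in ex2/flu against flu (adjusted p 0.877). XTH33 lay around the level of the filter, with 42 and 69 in flu, 108 and 56 in wild type and 121 and 91 in ex2/flu. Both flu arrays were below the 40th percentile, so its differences from flu are uncertain. They were 0.90 ± 0.38 in ex1/flu and 0.97 ± 0.38 in ex2/flu (limma adjusted p 0.321 and 0.264). XTH33 gave the unadjusted counts above in those comparisons. With the other EXECUTER gene absent, loss of EX1 stood at -0.26 and loss of EX2 at -0.20. XTH19 had the same signs, and this likeness was not tested. XTH20, XTH21, XTH26 and XTH29 stayed below the 40th percentile on all 10 arrays, with highest signals of 48.1, 20.2, 20.9 and 33.3. XTH20 is the closest relative of the pair that could be read, and a level below the filter says only that it was dim in these leaves. XTH27, listed under an older name in the annotation, is not in the counts above. It ranged from 3204 to 4199 and stood at -0.26 ± 0.12 in ex2/flu against flu (limma p 0.0485, adjusted p 0.351). In flu against wild type it stood at 0.29 ± 0.12 (limma p 0.0334, adjusted p 0.277). Of 33 loci of the family, 10 had a probe set of their own and 6 were tested, XTH18, XTH19 and XTH27 included. Most of the family was thus not read. TCH4 and XTH24 were not analysed here, since they are among the loci to which the annotation table used assigns no probe set.

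**Figure D3:**
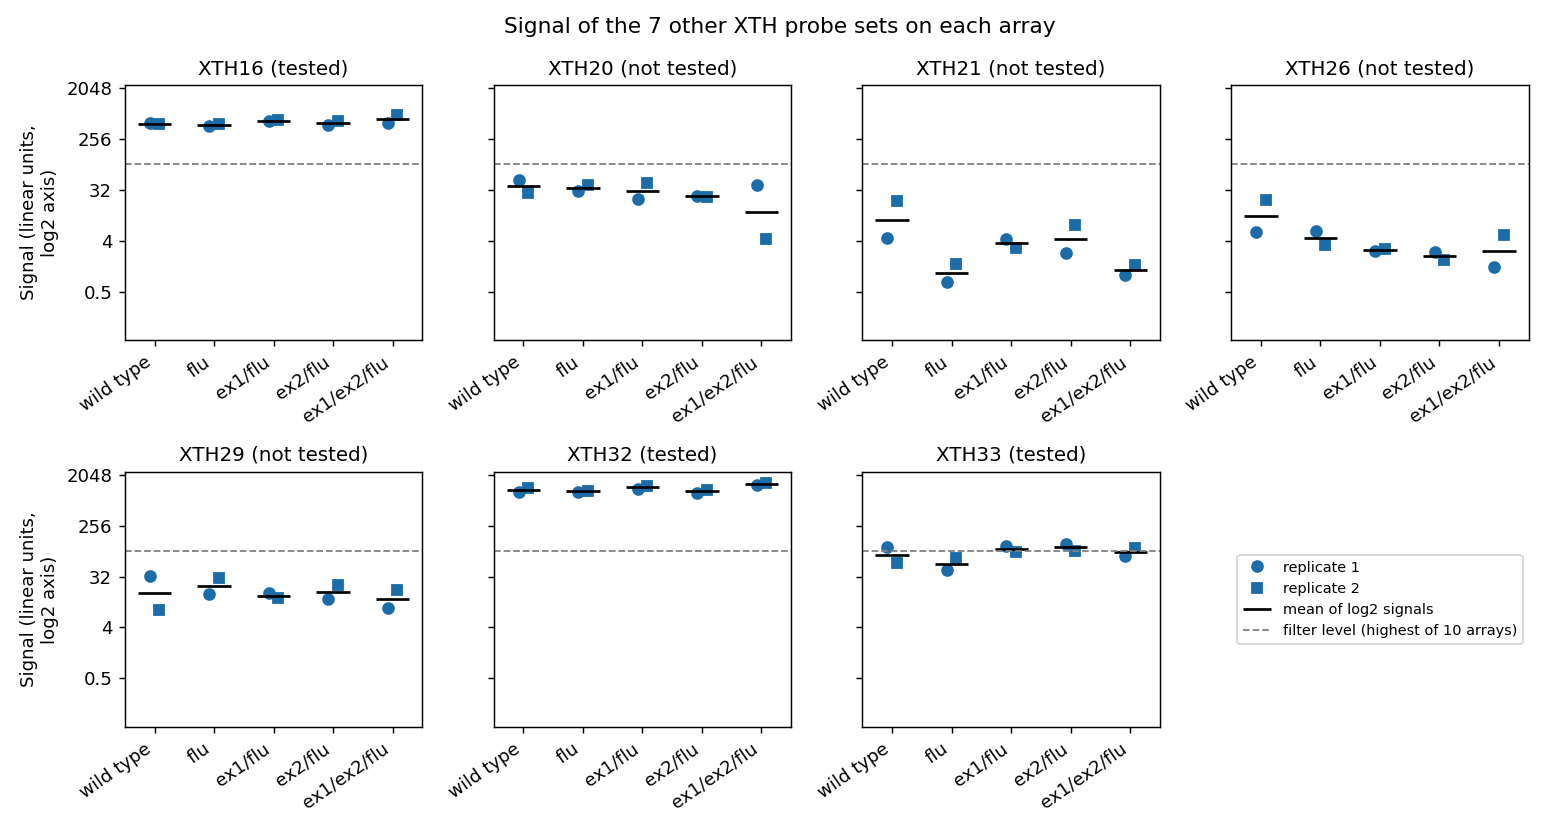
Signal of the 7 other XTH probe sets on each of the 10 arrays, on 1 shared log2 axis, with circles for replicate 1, squares for replicate 2, a bar at the mean of the log2 signals and the highest 40th percentile of the arrays (92.6) as a dashed line. XTH16 ranges from 440 to 686, XTH32 is highest in ex1/ex2/flu (1352 and 1446, against 976 to 1308 elsewhere), XTH33 lies around the line and the other 4 lie below it on every array.

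The levels of the pair were then set beside genes of calcium signalling and early stress, many of them induced by touch. This list of 14 loci was drawn up with earlier results of these arrays known, so its counts support no direction. Of its members, 7 had a probe set of their own and 6 were tested: CML37 and CML38 (calmodulin-like calcium sensors), STZ (a zinc-finger repressor), WRKY53 (a transcription factor of senescence and defence) and PUB23 and PUB24 (ubiquitin ligases that dampen immune responses). CML39 was below the 40th percentile on all arrays. In flu against wild type 6 of 6 were called higher (2.83% of all probe sets were called higher and 1.02% lower), with a median difference of 1.46 log2 units against -0.04 over all probe sets. In ex1/flu against flu 3 of 6 were called lower (1.14% lower and 0.222% higher over all), namely STZ, WRKY53 and PUB24, with a median of -1.07 against 0.01. In ex1/ex2/flu against flu 5 of 6, all but CML38, were called lower (2.51% lower and 0.485% higher over all), with a median of -1.26 against 0.04. In ex2/flu against flu 0 of 6 were called in either direction (0.333% higher and 0.707% lower over all), with a median of 0.52 against -0.01.

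On CML37, CML38, PUB23 and STZ both ex2/flu arrays were the highest of the 10, as they were for XTH18 and XTH19, while on WRKY53 and PUB24 they overlapped the flu arrays. The CML37 signal was 1127 and 1630 in ex2/flu, 642 and 778 in flu, 272 and 363 in ex1/flu, 393 and 198 in ex1/ex2/flu, and 238 and 165 in wild type. It rose by 1.84 ± 0.29 log2 units in flu against wild type (limma adjusted p 0.00109, n = 2 per genotype) and stood at 0.94 ± 0.29 in ex2/flu against flu (0.144). The CML38 signal was 1386 and 2072 in ex2/flu and 674 and 964 in flu, a difference of 1.07 ± 0.31 (limma adjusted p 0.121). Its limma adjusted p was near the threshold in flu against wild type (0.041) and in ex1/ex2/flu against flu (0.0533). PUB23 had 472 and 379 in ex2/flu against 244 and 293 in flu, and stood at 0.66 ± 0.23 (adjusted p 0.194). STZ went from 5779 and 6630 in flu to 7798 and 8380 in ex2/flu (0.39 ± 0.15, adjusted p 0.253), and PUB24 was at -0.22 ± 0.17 (0.612). WRKY53 had 3168 and 2402 in ex2/flu against 2184 and 2498 in flu (0.24 ± 0.19, adjusted p 0.619).

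The genes most like the pair were sought over the 10 arrays by Pearson's r with the mean log2 signal of XTH18 and XTH19. The search covered 485 genes whose genotype means spanned at least 1 log2 unit. The 10 arrays are 5 genotypes in 2 copies, so r mostly reflects the sizes of the genotype means and is given without a p. XTH18 and XTH19 correlated with each other at 0.651, and 19 of the 485 genes (3.92%) reached 0.9 with their mean, against a median r of 0.282.

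Of the 5 highest, AT5G46910 (r 0.940) had 235 and 279 in ex2/flu and 105 and 174 in flu. AT4G34150 (0.936) had 3157 and 3090 in ex2/flu and 2161 and 2548 in flu. B120 (AT4G21390, 0.934) had 271 and 269 against 122 and 182, and ORA47 (AT1G74930, a transcription factor of the jasmonate response, 0.931) had 338 and 328 against 134 and 210. AT5G17350 (0.929) had 398 and 489 against 197 and 199. On all 5 genes both ex2/flu arrays lay above both flu arrays, and the ratio was smallest for AT4G34150. Likeness to a pair chosen for that step favours it, so it is no separate result. Taken apart, the r with XTH18 and with XTH19 was 0.937 and 0.741 for AT5G46910, and 0.897 and 0.785 for B120. It was 0.845 and 0.866 for AT4G34150, 0.845 and 0.855 for ORA47, and 0.826 and 0.878 for AT5G17350. The r of the tested calcium and stress genes with the mean of the pair was 0.927 for CML38, 0.922 for CML37, 0.905 for PUB23, 0.831 for STZ, 0.822 for WRKY53 and 0.609 for PUB24.

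At the other end were AT3G14280 (r -0.886), AT5G62130 (-0.880), AT3G56080 (-0.879), AT5G19130 (-0.867) and AT1G68570 (-0.853). AT5G62130 had 314 and 274 in ex2/flu, and 447 and 473 in flu. AT1G68570, of the nitrate and peptide transporter family, had 932 and 824 in ex2/flu, 1390 and 1189 in flu, and 1779 and 2077 in wild type. On 4 of these 5 genes both ex2/flu arrays lay below both flu arrays, the reverse of XTH18 and XTH19, which the pick by lowest r favours. On AT3G56080 the arrays overlapped (167 and 111 in ex2/flu, 214 and 152 in flu). AT3G14280 was below the 40th percentile on both ex2/flu arrays.

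**Figure D4:**
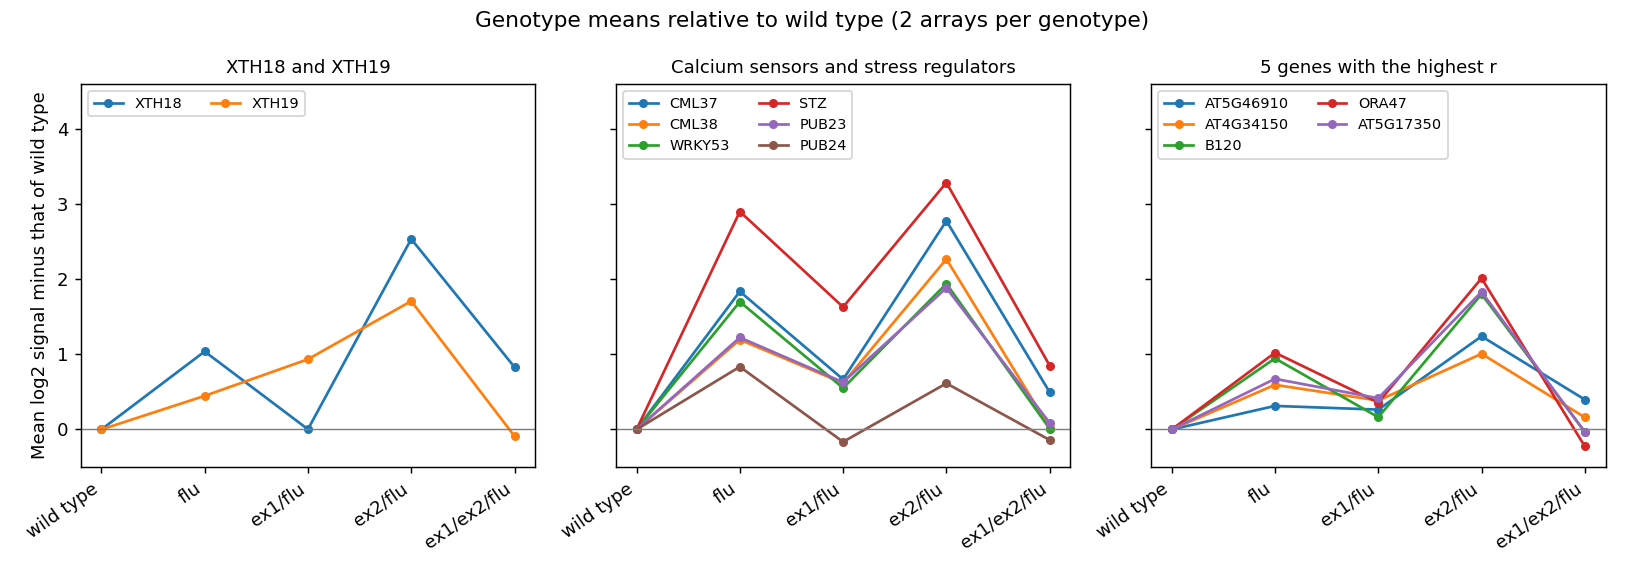
Mean log2 signal of each genotype minus that of wild type (n = 2 per genotype) for XTH18 and XTH19, for the 6 tested genes of calcium signalling and early stress, and for the 5 genes with the highest r; lines only join the values of a gene. XTH18 is at 2.53 and XTH19 at 1.71 in ex2/flu, and in ex1/flu XTH18 is at 0.00 and XTH19 at 0.93; ORA47 was below the 40th percentile on both arrays in wild type and ex1/ex2/flu, and B120 in ex1/ex2/flu.

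The position of the pair was read from the RefSeq annotation of assembly TAIR10.1. No protein-coding gene lies between XTH18 and XTH19, and XTH24, another member of the family, is next to XTH18 on the other side. EX1 is on the same chromosome, with 365 protein-coding genes between it and XTH19. Of the 5 loci on either side of the pair, 4 had a probe set of their own and 2 were tested. AT4G30310 had 1391 and 1174 in ex2/flu, and 1466 and 1559 in flu, at -0.24 ± 0.15 log2 units (limma adjusted p 0.521, n = 2 per genotype). AT4G30330 stood at 0.14 ± 0.24 (0.846). AT4G30230 and AT4G30320 did not pass the filter on dim probe sets. The tested neighbours thus did not show the step of XTH18 and XTH19, though with 2 of 10 loci read this says little about the rest of the region. Probe sequences were not compared with those of related family members. Cross-hybridization between XTH18, XTH19 and any other member, XTH24 included, was thus not tested.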

How the data were processed

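Total RNA of 10 leaf samples was labelled with biotin and hybridized to ATH1 arrays. The authors deposited 1 signal per probe set as a linear intensity; per the submitters' processing notes, GCOS 1.2 and MAS5 were used. Leaving out the lowest and highest 2% of values, array means lay between 499.796 and 499.816. The scaling target is not given in the sources used here, and the table held no detection calls, so dimness was judged by level.

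The 64 control probe sets were left out. Probe sets at or above an array's 40th percentile on 2 or more arrays were log2-transformed and fitted in R 4.3.3 with limma 3.58.1 (1 mean per genotype over all 10 arrays, eBayes with an intensity trend, 5 residual and 10.0 prior degrees of freedom). Calls were made at a Benjamini-Hochberg adjusted p under 0.05 over 14435 probe sets. The script was tested on simulated data with known changes. The number of arrays limits the precision. The array annotation gave 13513 probe sets 1 gene, and 13436 of these matched a locus. It listed no gene for 8730 probe sets. Figures used matplotlib 3.10.9.

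The members and gene lists were chosen with earlier results of these data known. Genes named were all XTH symbols, list members called or brightest, the 5 most and 5 least like the pair, and measured neighbours. XTH27 belongs to the family by locus. Alternatives tried were quantile normalization, no or a stricter filter, no trend, an offset of 16, only the arrays compared, the replicate number or the spike-in level as a term, and leaving out each array.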

Additional observations from a re-analysis of the deposited data

Results flagged for a closer look

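XTH19 was picked out for a difference between genotypes. Losing EX1 took it up by 0.49 log2 units where EX2 was present (426 and 376 in ex1/flu, 296 and 276 in flu) and down by 1.80 where EX2 was absent (210 and 184 in ex1/ex2/flu, 658 and 712 in ex2/flu). In both comparisons the arrays of the genotypes did not overlap, and the difference of the effects was -2.28 log2 units. It contains the 1.26 by which ex2/flu exceeded flu, the value that chose the gene. The rest is the -1.02 of ex1/ex2/flu against ex1/flu, which was not called. For XTH18 the difference of the effects was -0.67, with EX1 loss downward in both cases. The difference of the effects was not tested, because it uses the arrays that chose the genes.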

How the results depend on the processing

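For XTH18 and XTH19, 8 comparisons each had 18 alternatives, as had the 4 counts of other XTH probe sets called in flu against wild type and in the EXECUTER lines against flu. The remaining values were not recomputed. Those counts were 0 in all of them. Outside the fits that left out an array, only 1 result changed: XTH19 in ex1/ex2/flu against ex1/flu was called after quantile normalization (-1.07 log2 units, limma adjusted p 0.0342, n = 2 per genotype), and the adjusted p ran from 0.0342 to 0.677 over the alternatives. Leaving out 1 array moved XTH18 to -0.31 to 0.32 in ex1/flu against wild type, 0.51 to 1.15 in ex1/ex2/flu against wild type, 0.53 to 1.55 in flu against wild type, -1.55 to -0.52 in ex1/flu against flu, 0.99 to 2.01 in ex2/flu against flu and -0.72 to 0.30 in ex1/ex2/flu against flu. It moved XTH19 to 0.81 to 1.06 in ex1/flu against wild type, -0.22 to 0.039 in ex1/ex2/flu against wild type, 0.32 to 0.58 in flu against wild type and 1.58 to 1.84 in ex2/flu against wild type. A lone array was assumed to vary like the other groups. The cause of these moves was not tested.

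Replicate numbers did not pair the samples across the genotypes: the deviations of same-numbered arrays correlated at -0.09 to 0.43 over 10 pairs of genotypes, above 0.1 in 1. That pair was ex1/flu with ex2/flu (0.43), so same-numbered arrays of these lines shared some deviation, whose source was not tested. With the replicate block XTH19 in ex1/flu against wild type stayed at 0.93 (limma adjusted p 0.00998), and no call for XTH18 or XTH19 changed. With the level of the spike-in probe sets as a term, that adjusted p was 0.00846. Without the filter it was 0.0267 and without the trend 0.0242.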

Other observations

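Other genes of wall loosening and building were measured on the same arrays. Of 13 expansin loci, whose proteins loosen walls without cutting them, 7 had a probe set of their own and 6 were tested, and 0 of 6 were called by limma in flu against wild type or in any EXECUTER line against flu. Over all probe sets 1.04% to 3.84% were called in these comparisons, so 0 of 6 is what the background would mostly give. EXPA8 had 1502 to 2038 over the 10 arrays. EXLA1, an expansin-like gene, had 722 and 525 in flu, 901 and 1100 in ex1/flu, 843 and 957 in ex1/ex2/flu, then 875 and 912 in ex2/flu. In wild type it had 786 and 627, which overlapped flu (-0.19 ± 0.19 log2 units in flu against wild type, limma adjusted p 0.709). All 6 arrays of the EXECUTER lines were above the flu arrays, but the difference of 0.69 ± 0.19 log2 units in ex1/flu against flu was not called (limma adjusted p 0.0938, n = 2 per genotype). CSLC4, which builds the xyloglucan backbone, ranged from 1285 to 1948 and COB, which guides cellulose deposition, from 2248 to 3133. Neither was called in these comparisons. CSLC4 was the only measured member of 9 loci of xyloglucan synthesis and trimming. COB was the only measured member of 10 loci of cellulose synthesis, so little is read about either process.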
